A study of Mus musculus with 33 samples.

Results

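The posterior hypothalamus (PH) of adult female mice long after ovariectomy (OVX) was compared with that of ovary-intact females by bulk RNA sequencing. The comparison uses the samples whose labels name the PH and either 4 months post-OVX (n = 6) or the intact state (n = 4), 10 of the 33 samples of the series. All were wild-type C57BL/6 females. Those of the 4-month group were ovariectomized at 3 to 4 months of age, so they were about 7 to 8 months old at collection. The age of the intact females at collection is not stated. The intact females were euthanized in diestrus, and their sample titles call them sham while another label and the study call them intact. No intact group of the later age was analysed here, so the loss of the ovaries and the added months of age cannot be told apart. Each group came from both labelled batches, 2 and 2 samples for intact and 3 and 3 for 4 months. The labels do not say more about the separate animals, and p-values measure the spread between these samples. A sample is a piece of tissue, in which fewer cells of a type and less RNA per cell cannot be told apart.

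The PH dissection contains the arcuate nucleus, where neurons that make kisspeptin, neurokinin B and dynorphin (KNDy neurons) drive the pulses of gonadotropin-releasing hormone. Ovarian estradiol restrains these neurons, and its loss releases them. The hypothalamus also holds microglia and astrocytes, which make complement and interferon-induced proteins, and a dense capillary bed, and each of these is known to change with age as well as with sex steroids.

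The deposited table gives a normalized level on a linear scale, not read counts. The values of low genes pile up at about 22.1, called the floor here, and a few lie below it, down to 9.94. How the level was made is not given in the sources used here. If it is a variance-stabilized value put back on the linear scale after 1 component was removed, which its values allow, differences near the floor are understated, and p-values with a further SV1 may be too small. Read depth is not known from the table, and levels are compared here between samples of 1 gene and not between genes. The summed level per sample was 47385053 to 54486361 in these 10 samples. All 6 neuronal, 4 astrocytic, 4 microglial, 4 oligodendrocytic and 3 endothelial markers were at or above 2 times the floor in all 10 samples. Of 9 arcuate and tuberal markers, 8 were above it in all 10, the exception being Kiss1, and of 5 markers of mammillary and posterior nuclei 4 were, the exception being Barhl1. The sum of the 9 arcuate and tuberal markers was 4145 to 7718 in the intact samples and 3976 to 14410 at 4 months. That of 4 thalamic markers was 12865 to 18261 and 7204 to 28586. The highest of both sums belonged to 4-month replicate 3. Pituitary hormone genes were near the floor in most samples, and intact replicate 4 stood apart. Prl, prolactin, was 2919 in intact replicate 4 and 20.9 to 155 in the other 3 intact samples. Choroid plexus RNA varied within both groups, with Ttr, transthyretin, at 53502, 759, 1889 and 23292 in the intact samples and at 705 to 70532, with a median of 1063, at 4 months. Of the 14-day samples, replicate 5 stood apart, with a median correlation of 0.964 with its own group against 0.983 to 0.991 in the other PH samples.

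Differences were tested with limma on log2 values in a fit of all 16 PH samples, the 6 taken 14 days after OVX included, with 1 surrogate variable (SV1) as covariate. Adjusted p is the Benjamini-Hochberg value over the 21984 genes tested, and a gene is called at an adjusted p under 0.05. Among the 16109 protein-coding genes tested, 4 were called, 0.0248% of them, and all 4 were higher 4 months after OVX. Without intact replicate 4 the count was also 4, of which 3, C4b, Gm34066 and Gm28040, are among the 4 of the main fit. Without 14-day replicate 5 it was 6, with all 4 of the main fit among them. With a replicate block 4 were called, of which 2, Alas2 and Gm34066, are among the 4 of the main fit. In batch 1 alone C4b was called and in batch 2 alone none was, with 2 against 3 samples in each. Over all gene types 7 were called, 0.0318%, of which 6 rose (0.0273%) and 1 fell. They were the complement gene C4b, the heme synthesis gene Alas2, the little-studied coding gene Gm34066, the kisspeptin locus entry Gm28040, the pseudogenes Pisd-ps1 and Gm18517, and the long noncoding RNA 9630013A20Rik. At an unadjusted p under 0.05, 6.61% of the protein-coding genes were counted, 3.22% higher and 3.39% lower. In 0.584% of them all 6 samples at 4 months lay above all 4 intact samples, and in 0.348% all 6 lay below. Genes named below for a low p were picked from these same samples, so such a separation in them is no added support. The median log2 difference over all protein-coding genes was -0.01.

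**Figure D1:**
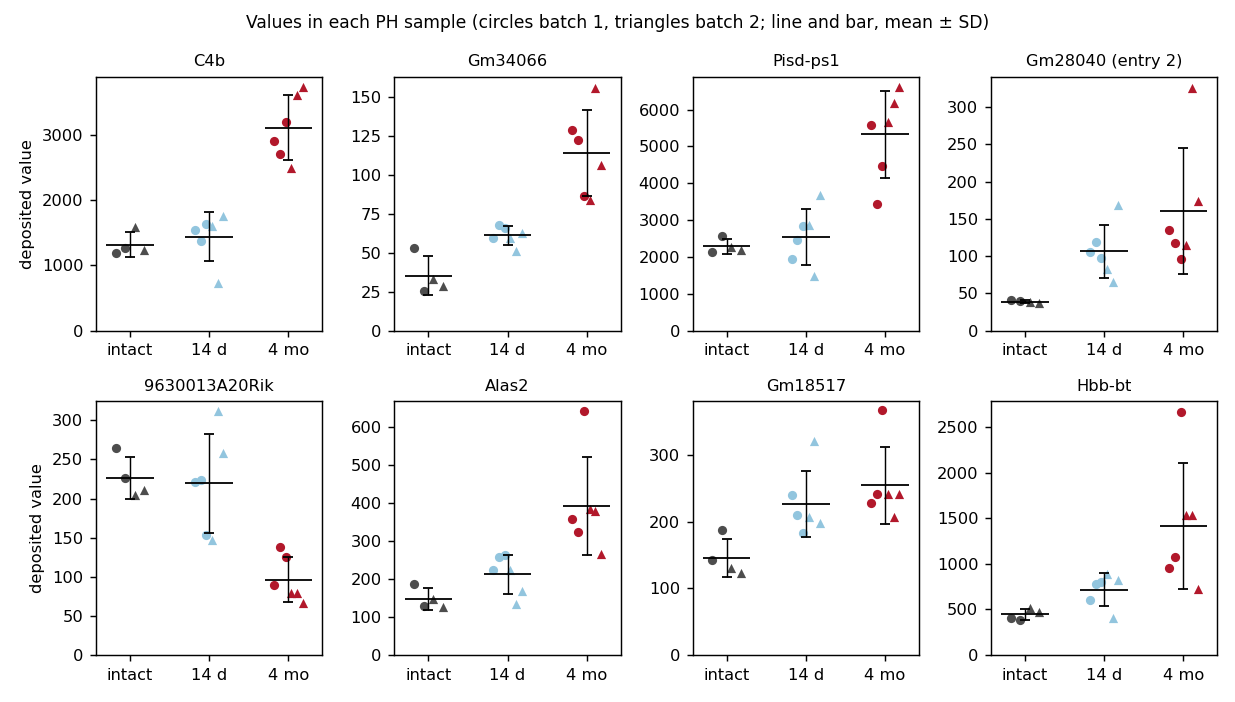
Deposited level (linear, from 0) of the 7 called genes and of Hbb-bt in each PH sample, intact (n = 4), 14 days (n = 6) and 4 months (n = 6) after OVX, with circles for batch 1, triangles for batch 2, and the mean with its SD. In each called gene the intact and 4-month points do not overlap, and for C4b the 14-day points overlap the intact ones. Over all protein-coding genes 0.584% had all 4-month samples above all intact ones and 0.348% below. The 7 genes were called from these same samples, so the separation is no added support.

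C4b encodes complement component C4, which is cleaved by the classical and lectin pathways and tags targets for removal. It lies at chr17:34947354-34962912 on the minus strand (GRCm39). Its level was 1193, 1264, 1598 and 1233 in the intact samples. At 4 months it ran from 2497 through a median of 3058 to 3742, so that the lowest 4-month sample was above the highest intact one. The mean rose from 1322 ± 186 (SD, n = 4) to 3113 ± 500 (SD, n = 6), a log2 difference of 1.19 (SE 0.12, limma adjusted p = 2.67e-04). Within batch 1 the difference was 1.26 and within batch 2 it was 1.20. At 14 days the level was 732 to 1765, and the change from 14 days to 4 months was itself called (log2 0.95, SE 0.12, limma adjusted p = 0.00371), 1 of 2 genes called between those times (0.0091%). With batch in place of SV1 the adjusted p of C4b was 0.0713 and with a replicate block 0.0718, at log2 differences within 1.10 to 1.27 over all 30 alternatives. Its near-identical neighbour C4a (chr17:35028069-35042440) was listed at 70.4 to 138 in intact samples and at 61.2 to 149 at 4 months, and reads that both genes could produce may have been split between them.

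Alas2, on chromosome X, encodes the erythroid form of 5-aminolevulinate synthase, the first enzyme of heme synthesis. Its level was 188, 128, 146 and 128 in the intact samples. At 4 months it was 265 to 642 with a median of 370, above every intact sample. It rose by a log2 difference of 1.37 (SE 0.22, limma adjusted p = 0.0301), with 1.44 in batch 1 and 1.31 in batch 2. The call was lost when any of intact replicates 2, 3 or 4 or 4-month replicates 4 or 5 was left out, with limma adjusted p of 0.0702 to 0.206. It was also lost with no filter on low values (limma adjusted p = 0.135), with 100 added to each value (0.0601), without trended and robust variances (0.0661) and in each batch alone, 10 of 30 alternatives in all. The 14-day samples lay in between, at 135 to 264.

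Other genes of red blood cells were higher together with Alas2. The list of heme synthesis and red cell genes had 25 of 29 members tested. Of these 1 was called, 8 were higher at an unadjusted p under 0.05 and 1 was lower, and in 7 all 4-month samples lay above all intact samples, against the shares of 3.22%, 3.39% and 0.584% among all protein-coding genes. The counts of higher members stayed between 6 and 9 over the 30 alternatives. The median log2 difference of the list was 0.08. The beta globin gene Hbb-bs was 3261, 2888, 3668 and 2714 in intact samples and 4457 to 16731, median 8059, at 4 months. The groups did not overlap, and the log2 difference was 1.36 (SE 0.27, limma adjusted p = 0.143). Hbb-bt had a log2 difference of 1.53, Hba-a1 of 1.37 and Hba-a2 of 1.35, each with all 6 samples above the intact ones and none past the adjusted threshold. Reads that Hba-a1 and Hba-a2 could both produce may have been split between them, as may those of Hbb-bs and Hbb-bt. The globin genes are thus not separate results. Slc4a1, the band 3 anion exchanger of the red cell membrane, was 36.2 ± 10.1 (SD, n = 4) in intact samples and 88.7 ± 33.5 (SD, n = 6) at 4 months, with a log2 difference of 1.30 (SE 0.23, limma adjusted p = 0.0516).

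The globin genes were also the blood markers of this dissection. The sum of Hba-a1, Hba-a2, Hbb-bs and Hbb-bt was 6380 to 8279 in the intact samples and 11828 to 36609 at 4 months, without overlap. The highest sum and the highest Alas2 both belonged to 4-month replicate 3. The part of blood left in the tissue in the result for Alas2 was not tested. Enzymes of heme synthesis that every cell uses, chosen here after their values were seen, differed little: Fech by 0.08, Cpox by 0.06, Urod by 0.05 and Alas1 by 0.10 on the log2 scale. Tfrc, the transferrin receptor that brings iron into cells, was the 1 member of the list that was lower at an unadjusted p under 0.05, with a log2 difference of -0.42 and 5 of 6 samples below all intact ones.

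The promoter of Alas2 is shown because its gene is the called member of this group. The sequence is from RefSeq (GRCm38.p6, chrX:150547167-150547466, plus strand) and spans 250 bases before to 50 bases after the gene start, and capitals mark the letters AGATAA or their reverse complement, a core that GATA factors bind in erythroid cells.
Alas2 promoter: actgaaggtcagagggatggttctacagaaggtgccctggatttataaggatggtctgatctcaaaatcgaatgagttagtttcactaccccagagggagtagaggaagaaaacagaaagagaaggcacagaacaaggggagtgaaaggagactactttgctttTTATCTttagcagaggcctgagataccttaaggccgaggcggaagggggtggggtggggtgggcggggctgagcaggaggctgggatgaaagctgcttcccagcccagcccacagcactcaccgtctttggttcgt
The letters AGATAA on either strand are in 11.2% of the 32851 promoters of the same length. They are in 5 of the 27 promoters (18.5%) found for 20 genes of the heme and red cell list, those of Alas2, Hbb-bs and Epb42, a red cell membrane protein, among them.

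Gm28040 is the name under which the table carries part of the kisspeptin locus. It has 2 entries of that name and an entry named Kiss1. In GENCODE M39 (GRCm39) 2 genes are named Gm28040, and whether it also holds a gene named Kiss1 is not reported here. Of the 13 transcripts of these 2 genes 11 encode the kisspeptin-10 peptide, all of them from 1 gene, ENSMUSG00000115958 at chr1:133237565-133257465 on the plus strand. The other gene, ENSMUSG00000098306, overlaps it, and the 287 coding bases of the last exon printed here lie in exons of both genes, so reads from them cannot be assigned to 1 gene. The table does not pair its entries with these identifiers. The coding part of that exon is shown because 1 of the 2 genes encodes kisspeptin-10 in it (GRCm39, chr1:133257094-133257380, plus strand). Whether the called entry is that gene is not known. Capitals mark the 30 bases that encode kisspeptin-10, the C-terminal peptide that activates the kisspeptin receptor.
Kisspeptin coding exon: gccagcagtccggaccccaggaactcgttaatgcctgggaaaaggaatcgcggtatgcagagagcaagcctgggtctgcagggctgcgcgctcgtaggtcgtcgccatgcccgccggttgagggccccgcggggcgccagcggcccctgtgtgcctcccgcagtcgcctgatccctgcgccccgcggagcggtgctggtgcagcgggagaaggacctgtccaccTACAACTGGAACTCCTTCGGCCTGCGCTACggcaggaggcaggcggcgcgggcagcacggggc

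The second Gm28040 entry was 40.8, 39.3, 38.3 and 37.1 in the intact samples, within 2 times the floor. At 14 days it was 65.6 to 168 and at 4 months 96.0 to 326, with a median of 127. Every sample after OVX was above every intact sample. No intact sample reached 2 times the floor, so the entry passed the filter (at least 4 PH samples at that level) only through samples after OVX. This separation is therefore no added support for the call. The log2 difference at 4 months was 1.87 (SE 0.25, limma adjusted p = 0.00357), with 1.52 in batch 1 and 2.30 in batch 2. It was 1.53 at 14 days (limma adjusted p = 0.287), and the step from 14 days to 4 months was 0.34 (limma adjusted p = 1.00). The call was lost with 100 added to each value (limma adjusted p = 0.103) and with a replicate block (0.132). The first Gm28040 entry, at 20.9 to 32.8 intact and 21.0 to 34.6 at 4 months, and the Kiss1 entry, at 22.1 to 30.9 and 22.2 to 42.1, were too low to be tested.

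Among the other members of the list of KNDy and pulse control genes, 12 of 14 were tested, none was called, and 1 was higher and 1 lower at an unadjusted p under 0.05. The median log2 difference was -0.02. Tac2, which encodes neurokinin B, was 902, 600, 1054 and 840 in the intact samples and 958 to 1309, median 1158, at 4 months. Of the 6 samples 5 lay above all intact ones, and the log2 difference of 0.47 (SE 0.15, limma adjusted p = 0.617) did not pass. Pdyn, which encodes dynorphin, had a log2 difference of 0.22 (SE 0.15) and Tacr3, the neurokinin B receptor, of 0.00 (SE 0.12). Pgr, the progesterone receptor and an estrogen target, was 1972 to 2076 in the intact samples and 1327 to 1965 at 4 months. All 6 samples were below the intact ones, by a log2 difference of -0.22 (SE 0.09, limma adjusted p = 0.712). The estrogen receptor gene Esr1 had a log2 difference of 0.17 (SE 0.12).

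Gm34066, on chromosome 1 (chr1:54481723-54495949, minus strand, GRCm39), is a coding gene of unknown role. Its level was 53.3, 25.7, 33.3 and 28.8 in the intact samples, close to the floor. At 4 months it was 84.2 to 156, with a median of 114, above every intact sample. Only intact replicate 1 reached 2 times the floor, so the gene passed the filter on low values through the samples after OVX. Its separation from the intact samples is therefore no added support for the call. It rose by a log2 difference of 1.72 (SE 0.20, limma adjusted p = 9.25e-04), with 1.59 in batch 1 and 1.85 in batch 2. The 14-day samples were in between, at 51.5 to 68.0 and a log2 difference of 0.86. Of 30 alternatives the call held in 28, the exceptions being the fits of batch 1 alone and of batch 2 alone, which have 2 against 3 samples.

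The remaining called genes were noncoding. Pisd-ps1 is a transcribed pseudogene of Pisd, the mitochondrial phosphatidylserine decarboxylase, at chr11:3076006-3081004. It was 2122, 2574, 2258 and 2180 in the intact samples and 3444 to 6625, median 5623, at 4 months, and rose by a log2 difference of 1.15 (SE 0.14, limma adjusted p = 9.25e-04). With no covariate its adjusted p was 0.0808, with batch in place of SV1 0.0742 and with a replicate block 0.214. Its sequence resembles Pisd and Pisd-ps2, and how reads were divided among the copies was not tested. Gm18517, a processed pseudogene on chromosome 13, rose from 146 ± 28.8 (SD, n = 4) to 254 ± 57.2 (SD, n = 6), by a log2 difference of 0.83 (limma adjusted p = 0.0317), a call that 15 of 30 alternatives did not keep. The 1 called gene that fell was 9630013A20Rik, a long noncoding RNA known from newly formed oligodendrocytes, which lies on chromosome 14 antisense to Pcdh17. Its level was 265, 227, 205 and 210 in the intact samples and 66.4 to 138, median 84.9, at 4 months. It fell, with a log2 difference of -1.24 (SE 0.17, limma adjusted p = 0.00419), and with no covariate its adjusted p was 0.0808, with batch in place of SV1 0.0742 and with a replicate block 0.274.

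**Figure D2:**
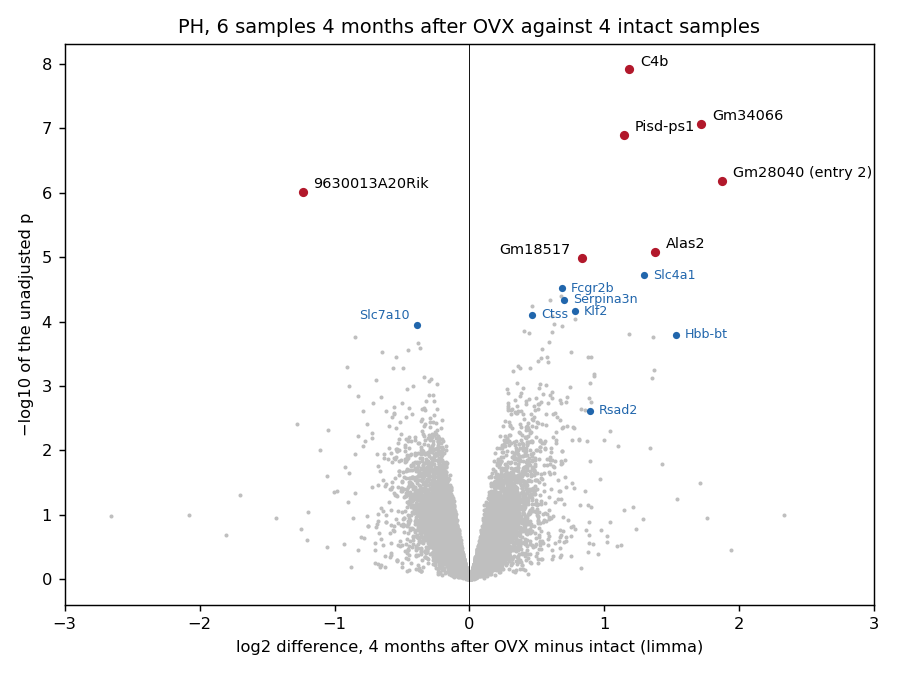
Log2 difference, 4 months minus intact, against -log10 of the unadjusted limma p for the 21984 genes tested, with the 7 called genes in red and 8 other genes in blue. The 6 called genes that rose sit at the upper right, from Gm18517 at 0.83 to Gm28040 at 1.87, and 9630013A20Rik sits alone at the upper left.

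The same change was measured in the preoptic area (POA), the other region of the series, and an interaction term in a fit of all 33 samples tested whether the regions differed. By the study's methods both regions were taken from the same females, the labels do not say which samples share an animal, and the fit treats all samples as separate. Of 23006 genes tested there, 2 differed at an adjusted p under 0.05 (0.00869%), and both are genes called in the PH. Gm34066 averaged 70.2 in the intact POA and 56.9 at 4 months, a log2 difference of -0.25 (SE 0.25), and the difference between regions was 1.97 (SE 0.33, limma adjusted p = 0.0117). For the second Gm28040 entry the POA means were 142 intact and 76.3 at 4 months, a log2 difference of -0.80 (SE 0.16), and the difference between regions was 2.68 (SE 0.30, limma adjusted p = 7.98e-06). For the other 5 called genes that difference did not pass. In the POA the log2 difference was 0.98 for C4b, 1.30 for Pisd-ps1, -1.18 for 9630013A20Rik, 0.65 for Gm18517 and 0.51 for Alas2, each in the direction seen in the PH.

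**Figure D3:**
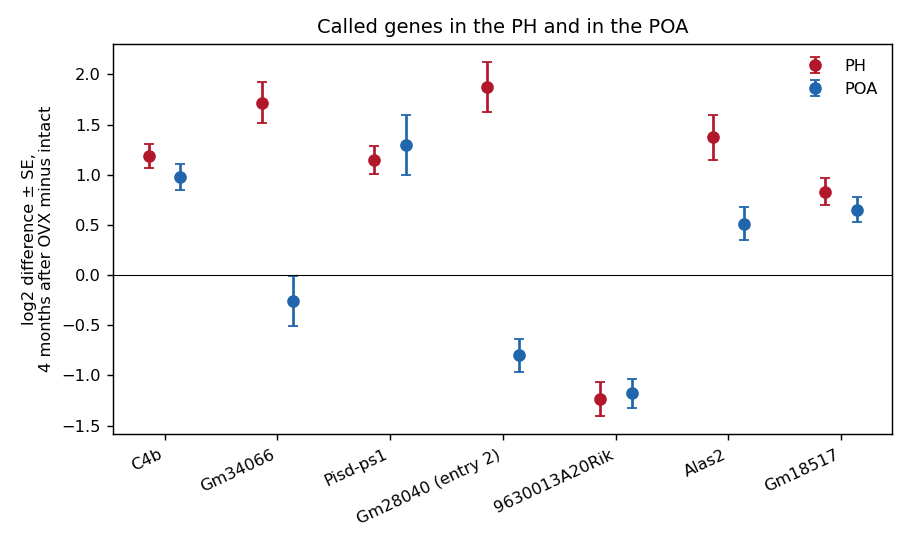
Log2 difference, 4 months minus intact, with its SE, of the 7 called genes in the PH (red) and in the POA (blue). Gm34066 and Gm28040 lie above 0 in the PH and below 0 in the POA, and the other 5 genes lie on the same side of 0 in both regions.

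Next to the called genes, the protein-coding genes of lowest p that were higher at 4 months were Slc4a1, Fcgr2b, Serpina3n, Tns2, Pcdhb14 and Klf2. Fcgr2b, the inhibitory Fc gamma receptor of microglia and B cells, was 126 to 211 in the intact samples and 211 to 304 at 4 months, with a log2 difference of 0.68 (SE 0.13, limma adjusted p = 0.0740). Serpina3n, a protease inhibitor of reactive astrocytes, was 996, 803, 792 and 820 in the intact samples and 1001 to 1689, median 1457, at 4 months, which leaves the groups barely apart. Its log2 difference was 0.70 (SE 0.13, limma adjusted p = 0.0841). Of 30 alternatives 1 put it past the adjusted threshold, the fit without 4-month replicate 3 (limma adjusted p = 0.00570). Leaving out 1 sample gave a limma adjusted p of up to 0.331. Tns2, a tensin of focal adhesions, had a log2 difference of 0.60, Pcdhb14, a clustered protocadherin, of 0.46, and Klf2, a transcription factor induced by blood flow in endothelium, of 0.78.

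Of the 10 protein-coding genes of lowest p that were lower at 4 months none was called. Those described here had log2 differences of -0.69 to -0.34. Slc7a10, a transporter of small neutral amino acids including D-serine, was 1624 to 2139 in the intact samples and 1195 to 2071 at 4 months, with a log2 difference of -0.39 (SE 0.08, limma adjusted p = 0.129). The groups did not overlap for Fndc4 (-0.38), Car8 (-0.37), Nxph2 (-0.54), Nrep (-0.49) and Pip5kl1 (-0.56), with all 6 samples below the intact ones. Over all protein-coding genes this share was 0.348%. These genes were picked by their p in the same samples, so the separation is no added support. Nrep, a regulator of neuronal differentiation, was past the adjusted threshold in 3 of 30 alternatives, among them the fit without 14-day replicate 5 (limma adjusted p = 0.0191). Cpne7 had a log2 difference of -0.46, Aacs, the acetoacetyl-CoA synthetase of ketone use, of -0.34, and Gm3005 of -0.69.

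Gene lists were described by counts at an unadjusted p under 0.05 and by the median log2 difference of their tested members, beside 3.22% higher, 3.39% lower and a median of -0.01 over all protein-coding genes. These counts are not calls, and with no covariate the shares over all protein-coding genes were smaller, with 329 higher and 191 lower against 519 and 546.

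**Figure D4:**
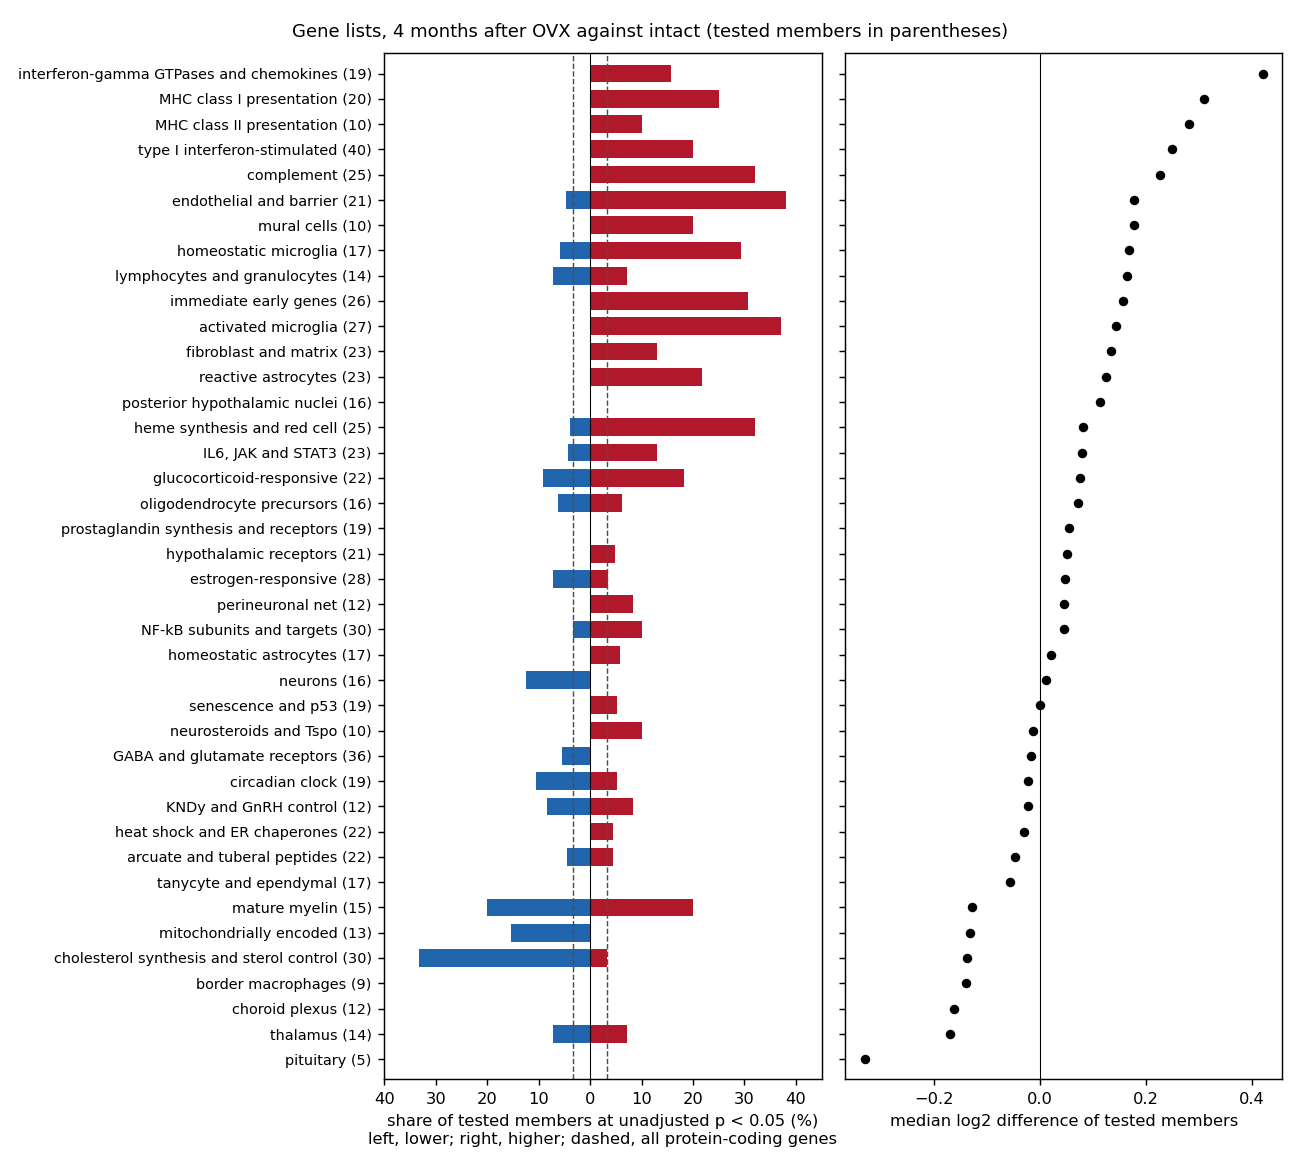
Left, share of the tested members of each list at an unadjusted p under 0.05, higher at 4 months to the right in red and lower to the left in blue, with dashed lines at the shares over all protein-coding genes, 3.22% and 3.39%. Right, the median log2 difference of the tested members, from -0.33 for pituitary genes to 0.42 for interferon-gamma GTPases and chemokines. The last median was 0.22 without 4-month replicate 5.

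Genes of the complement system, which C4b belongs to, were mostly higher. Of 27 members 25 were tested, 1 was called, 8 were higher at an unadjusted p under 0.05 and 0 lower, and the median log2 difference was 0.23. The count of higher members was 6 with no covariate, 7 with batch in place of SV1 and 3 in each batch alone. C1qa, which encodes a chain of the C1q recognition protein, was 1024, 888, 1128 and 1126 in the intact samples and 1177 to 1674, median 1426, at 4 months. All 6 samples lay above the intact ones, and the log2 difference was 0.40 (SE 0.08, limma adjusted p = 0.139). C1qb and C1qc, the partner chains, had log2 differences of 0.38 and 0.37, with 5 of 6 samples above all intact ones, and for C1qb the remaining sample, replicate 3, was below all intact ones.

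In the fit with SV1 interferon-stimulated genes differed in 1 direction. All 40 members of the type I interferon list had a log2 difference above 0, against 46.6% of all protein-coding genes, with a median of 0.25. The number above 0 was 35 with a replicate block or in batch 1 alone, and 37 in batch 2 alone. The mean log2 level of the list in 4-month replicate 4, 7.84, lay within the intact range of 7.72 to 7.89. Of the 40, 8 were higher at an unadjusted p under 0.05 and none was called. Without intact replicate 2 or 4-month replicate 5 the count was 5, whereas without 4-month replicate 4 it was 13. With a replicate block it was 4 and in batch 2 alone 0. Rsad2, the antiviral protein viperin, was 133, 103, 157 and 132 in the intact samples and 148 to 361, median 262, at 4 months, with a log2 difference of 0.89 (SE 0.25, limma adjusted p = 0.445). Zc3hav1, a sensor of viral RNA, did not overlap between the groups, at 540 to 611 and 657 to 997, with a log2 difference of 0.44 (SE 0.09, limma adjusted p = 0.139). Lgals3bp had a log2 difference of 0.40 and Ifih1, another viral RNA sensor, of 0.48. At 14 days the median of the list was 0.20, in a contrast that shares the intact samples.

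Antigen presentation genes and genes induced by interferon-gamma were mostly higher as well. Of 20 MHC class I presentation genes 5 were higher at an unadjusted p under 0.05 and 0 lower, with a median of 0.31. The count of higher members was 2 without intact replicate 2, 3 without intact replicate 4 or 4-month replicate 3, and 10 without 14-day replicate 6. With a replicate block it was 1. Psmb9, an immunoproteasome subunit, was 52.8 to 69.8 in the intact samples and 87.5 to 174 at 4 months, without overlap, with a log2 difference of 0.89 (SE 0.24, limma adjusted p = 0.406). B2m, the class I light chain, had a log2 difference of 0.46, H2-D1 of 0.36 and Erap1 of 0.26. Of 10 MHC class II genes 1 was higher, Ctss, the protease that trims the invariant chain, at 2242 to 3148 intact and 3019 to 3960 at 4 months (log2 0.46, SE 0.09, limma adjusted p = 0.114). Of 19 interferon-gamma GTPases and chemokines 3 were higher, with a median of 0.42: Irf1 by 0.64, Cxcl10 by 0.71 and Gbp6 by 0.62. Without intact replicate 4 that count was 1, and in batch 1 alone it was 0 with a median of 0.20. Without 4-month replicate 5 the median was 0.22. The mean log2 level of the list was 9.60 in that replicate and 7.67 to 8.16 in the other 4-month samples, against 7.72 to 7.98 intact.

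Microglial genes were higher in part. Of 29 genes of activated microglia 27 were tested, 10 were higher at an unadjusted p under 0.05 and 0 lower, with a median of 0.14. The count of higher members was 7 with no covariate, 2 in batch 1 alone and 5 in batch 2 alone. After Fcgr2b, the members of lowest p were Ctsz, a lysosomal cathepsin (0.31), Cd68, a lysosomal membrane protein (0.43), and Tyrobp, the adaptor of Trem2 (0.39). Of 17 genes of homeostatic microglia 5 were higher and 1 lower, with a median of 0.17, 2 and 1 with no covariate. The count of higher members was 3 without intact replicate 3 or 4 or 4-month replicate 6, 8 without 14-day replicate 5, and 0 in batch 1 alone. Itgam had a log2 difference of 0.31, Cx3cr1 of 0.23 and Aif1, which encodes IBA1, of 0.50, while Fcrls was lower by -0.34. The sum of the markers P2ry12, Tmem119, Cx3cr1 and Csf1r was 6135 to 6769 in the intact samples and 6586 to 8393 at 4 months, and the part of a higher share of microglial RNA in these results was not tested. Border macrophage genes had 0 of 9 at that threshold and a median of -0.14, and lymphocyte and granulocyte genes had 1 higher, Ighm (0.62), and 1 lower, Cd4 (-0.50), of 14 tested, with 7 of 21 too low to be tested.

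Cytokine pathway genes had smaller medians. Of 36 NF-kB subunits and targets 30 were tested, 3 were higher and 1 lower, with a median of 0.05. The count of higher members was 1 without intact replicate 2 or 4-month replicate 4 or 5, and 0 in batch 2 alone. Tnf, Il1b, Il6, Ccl2, Cxcl1 and Cxcl2 were too low to be tested. Icam1, an adhesion molecule of inflamed endothelium, was higher in all 6 samples (0.57, SE 0.15, limma adjusted p = 0.348), whereas Vcam1 was lower in all 6 (-0.21). Of 23 genes of the IL6, JAK and STAT3 path 3 were higher and 1 lower, with Stat3 at 2131 to 2421 intact and 2576 to 3192 at 4 months, without overlap (0.30, SE 0.09, limma adjusted p = 0.528). Of 19 genes of prostaglandin synthesis and its receptors none was at that threshold. Ptgs2, cyclooxygenase 2, was 157, 72.0, 67.5 and 68.4 in the intact samples and 76.6 to 371 at 4 months (0.82, SE 0.42, limma adjusted p = 0.838).

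Among astrocytes, 5 of 23 tested reactive genes were higher and 0 lower, with a median of 0.12 and counts of 2 to 6 over the alternatives. After Serpina3n they were led by Ggta1 (0.41), Stat3 and Vim (0.35), an intermediate filament. Gfap, the filament protein that marks reactive astrocytes, was 9864, 7075, 6387 and 6683 in the intact samples and 6325 to 14129 at 4 months, which overlapped (0.44, SE 0.21, limma adjusted p = 0.825). Of 17 homeostatic astrocyte genes 1 was higher, Sox9 (0.25), with a median of 0.02. Thsd4, a matrix protein, did not overlap between groups, at 446 to 508 intact and 541 to 796 at 4 months (0.51, SE 0.12, limma adjusted p = 0.225). It led the fibroblast and matrix list, of which 3 of 23 were higher with a median of 0.13. The count of higher members of that list was 1 without 4-month replicate 3 and 0 in batch 2 alone. Acan, the aggrecan core of perineuronal nets, was 109 to 187 intact and 194 to 396 at 4 months, without overlap (0.72, SE 0.19, limma adjusted p = 0.406), the 1 of 12 net genes at that threshold.

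Among vascular genes, several were higher. Of 21 endothelial and barrier genes 8 were higher and 1 lower, with a median of 0.18. Without intact replicates 2 or 4 or 4-month replicate 4 the count of higher members was 5, and in batch 2 alone it was 3. Kdr and Flt1, the VEGF receptors, had log2 differences of 0.59 (SE 0.13, limma adjusted p = 0.162) and 0.59 (SE 0.14, limma adjusted p = 0.225). Kdr was 561 to 619 in the intact samples and 604 to 1099 at 4 months, with 5 of 6 above all intact samples. Ly6a (0.62) and Ly6c1 (0.52), surface proteins of brain endothelium, did not overlap between groups. Of 10 mural cell genes 2 were higher, Vtn and Abcc9, with a median of 0.18 and all 10 above 0. The sum of Cldn5, Pecam1 and Cdh5 overlapped, at 2078 to 3080 intact and 2420 to 3160 at 4 months.

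Oligodendrocyte lists had members in both directions. Of 15 genes of mature myelin 3 were higher and 3 lower, with a median of -0.13. Without intact replicate 2 there was 1 higher, and without 4-month replicate 2 or 6 there were 5 lower. In batch 2 alone there were 0 higher and 0 lower. Cldn11 (-0.25) and Mog (-0.28) were lower, and Myrf, the transcription factor of myelination (0.40), and Hapln2 (0.40) were higher. Of 16 precursor genes 1 was higher, C1ql1, and 1 lower, Gpr17, a receptor of premyelinating cells (-0.28).

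The list with the most lower members was cholesterol synthesis and sterol control. Of 30 genes 10 were lower at an unadjusted p under 0.05 and 1, the lysosomal cholesterol exporter Npc1, was higher, with a median of -0.14, and 25 of 30 had a log2 difference below 0. The count of lower members was 5 with no covariate, 9 with batch in place of SV1, 5 without intact replicate 3 and 6 without 4-month replicate 1. With a replicate block it was 3, and in each batch alone, with 2 against 3 samples, it was 1. Cyp51, lanosterol demethylase, was 5009 ± 356 (SD, n = 4) in the intact samples and 3274 to 4887, median 4150, at 4 months (-0.27, SE 0.07, limma adjusted p = 0.400). Idi1 had a log2 difference of -0.36 and Mvd of -0.30. All of these differences were under 0.4 in size.

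**Figure D5:**
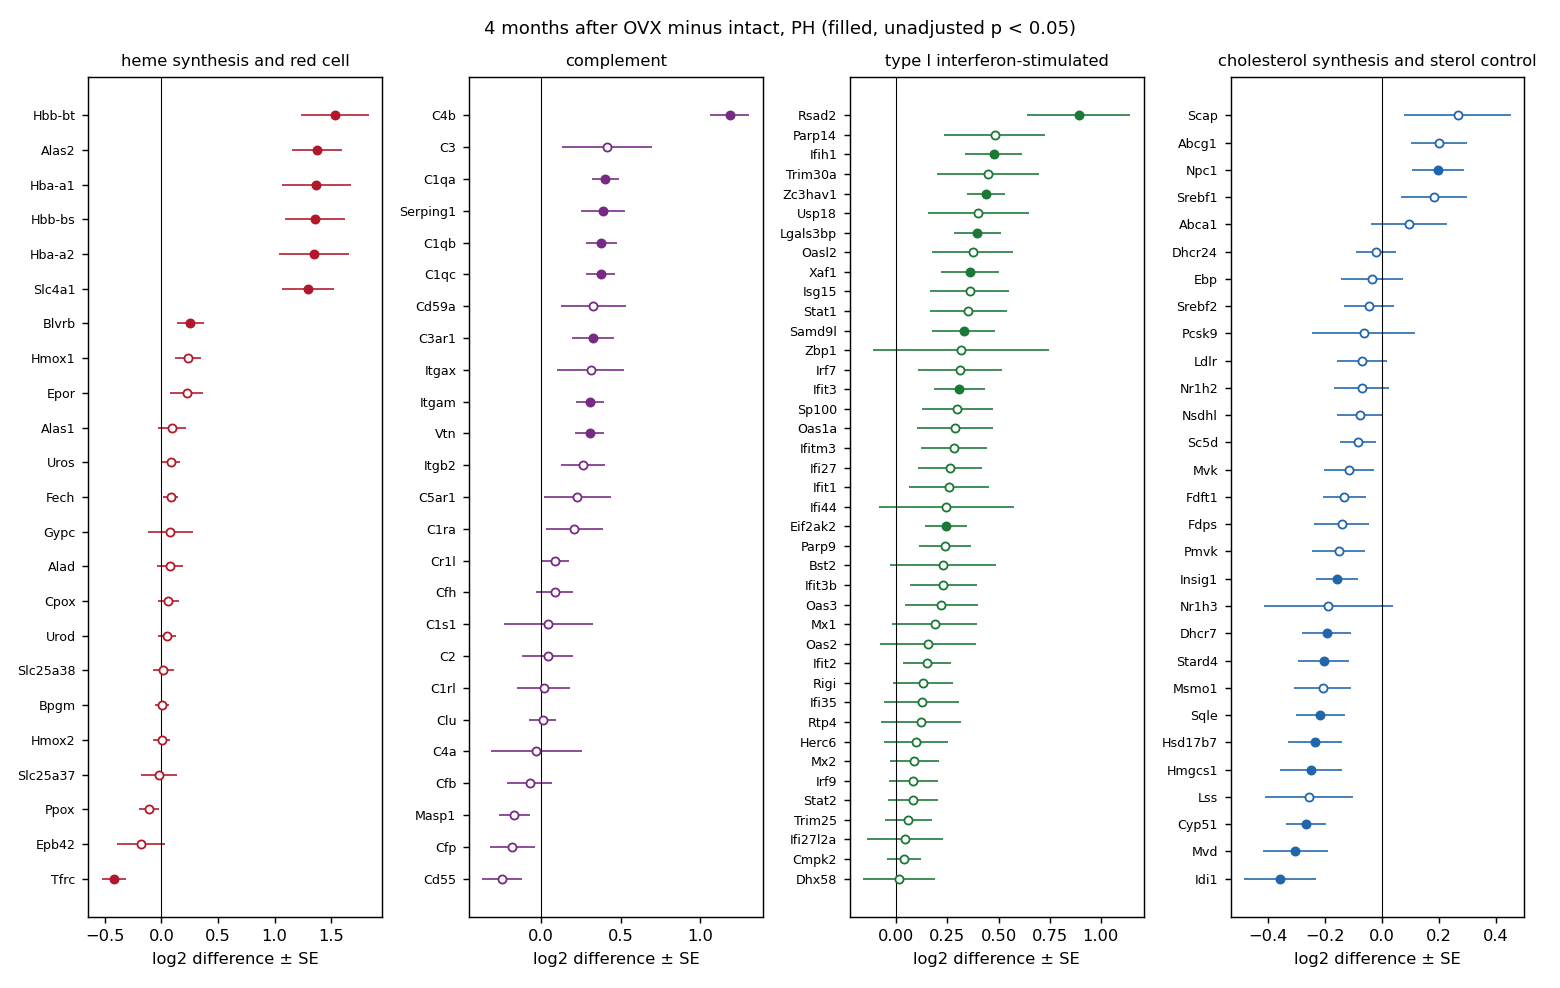
Log2 difference, 4 months minus intact, with its SE for tested members of 4 lists, a few of which are not drawn, filled where the unadjusted p was under 0.05. Of the red cell genes drawn, 6 lie at 1.30 or more and the others between -0.42 and 0.26, all 40 interferon-stimulated genes lie above 0, and most cholesterol genes lie below 0.

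Immediate early genes, which neurons induce within minutes of activity and which also respond to handling, were higher in part. Of 26 members 8 were higher and 0 lower, with a median of 0.16, and 4 were higher without intact replicate 2. In batch 1 alone 8 were higher and 0 lower, and in batch 2 alone 1 was higher and 3 lower. Npas4, an activity-dependent transcription factor, was 125, 119, 156 and 222 in the intact samples and 221 to 396 at 4 months (0.90, SE 0.21, limma adjusted p = 0.207). Btg2 had a log2 difference of 0.58 and Nr4a1 of 0.55. Fos, chosen after its values were seen, overlapped at 580 to 1384 intact and 669 to 1296 at 4 months. Of 22 glucocorticoid-responsive genes 4 were higher and 2 lower, with Zfp36 (0.68) and Depp1 (0.81) higher and Per1 (-0.30) and Klf9 (-0.23) lower. Of 19 clock genes tested 1 was higher and 2 lower, with a median of -0.02.

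Hypothalamic peptides and receptors had few members at that threshold. Of 22 arcuate and tuberal peptide genes 1 was higher and 1 lower. Cartpt, which encodes the satiety peptide CART, was 1265, 1141, 926 and 811 in the intact samples and 1222 to 2127 at 4 months (0.56, SE 0.16, limma adjusted p = 0.456). Agrp, the hunger peptide of the arcuate nucleus, was 86.6, 126, 106 and 104 intact and 60.9 to 113 at 4 months, with 5 of 6 samples below all intact ones (-0.52, SE 0.18, limma adjusted p = 0.638). Pomc had a log2 difference of 0.50 (SE 0.29) and Npy of -0.20 (SE 0.14). Of 21 receptors 1 was higher, Igf1r (0.29), and of 28 tested estrogen-responsive genes 1 was higher, the chemokine Cxcl12 (0.42), and 2 were lower, Pgr and Pdzk1 (-0.63), with a median of 0.05. The list of neurosteroid genes had 1 of 10 tested members higher, Tspo, the mitochondrial translocator protein, at 97.7 to 117 intact and 80.5 to 179 at 4 months (0.34, SE 0.16, limma adjusted p = 0.799).

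General neuronal genes had 0 of 16 higher and 2 lower, Tubb3 (-0.17) and Stmn2 (-0.14), and GABA and glutamate receptors had 0 of 36 higher and 2 lower, Gabrg1 (-0.23) and Grm5 (-0.16), with medians of 0.01 and -0.02. Posterior hypothalamic nuclei had 0 of 16 in either direction and a median of 0.11. Senescence and p53 genes had 1 of 19 higher, Btg2, and Cdkn1a at 0.03 (SE 0.17). Heat shock and chaperone genes had 1 of 22 higher, Bag3 (0.21), and mitochondrially encoded genes 0 of 13 higher and 2 lower, mt-Atp6 (-0.33) and mt-Atp8 (-0.59). Akap5 had a log2 difference of -0.09 (SE 0.23).

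Lists of neighbouring tissue gave 0 members at that threshold for tanycytes and ependyma (17 tested), choroid plexus (12 tested) and pituitary (5 of 12 tested). Thalamic genes had 1 of 14 higher, Pdzd2 (0.40), and 1 lower, Rgs16 (-0.39), with a median of -0.17. The median over pituitary genes was -0.33, with Prl at -2.08 and Gh at -1.43, for which intact replicate 4 carries the high values.

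In the list of 13 genes named in the study's account, Akap5 was named for a change in human hypothalamus. Others were named for changes in these samples, so the list is not independent evidence of its direction. It holds the first Gm28040 entry, which was too low to be tested. Of its 11 tested members none was called, 5 were higher at an unadjusted p under 0.05 (Tac2, Vim, Aif1, Tspo and Thsd4) and 0 lower, with a median of 0.35.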

How the data were processed

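Bulk RNA-seq of 16 PH samples (4 intact, 6 at 14 days and 6 at 4 months after OVX) was used, with the other 17 samples (POA) for 1 comparison. The authors pseudoaligned 50 bp paired reads of stranded mRNA libraries with kallisto to mm39 (GENCODE M30), used tximport for gene-level values and ran DESeq2 with a smartSVA surrogate variable. The deposited table holds a normalized expression signal on a linear scale, which the authors did not describe further. Whether strand was used in the counting is not stated.

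The table has 42824 entries, of which 1259 unnamed ones were dropped. Log2 values without a pseudocount were tested with limma 3.58.1 (R 4.3.3; trend and robust variances) for genes at 2 times the floor or more in at least 4 PH samples, with SV1 estimated anew in base R in 5 rounds. Fits were tested on simulated data. Gene positions and types are from GENCODE M39.

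The members, gene lists and tests were chosen with earlier results of these data known. Named were every called gene, the 10 protein-coding genes of lowest p in each direction, up to 4 members of lowest p of each of the 41 lists, and the genes of the study's account. Genes named beyond that (Fech, Cpox, Urod, Fos, C4a, Prl, Gh and Ttr among them) were chosen after their values were seen. Some genes are counted in the lists but not reported by name here. Alternatives were other covariates, batches, filters, scales and the removal of each sample.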

Additional observations from a re-analysis of the deposited data

Results flagged for a closer look

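Of 46 groups of samples examined for a sample far from the others, which were the intact and the 4-month groups of the 23 called or lowest-p genes, 5 held one, and chance flags about 1 in 20 groups. Gm18517 was 368 in 4-month replicate 3. Klf2 was 268 in 4-month replicate 1, below the other 5. Serpina3n was 996 in intact replicate 1. Gm3005 was 260 in intact replicate 1 and 143 in 4-month replicate 2.

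The 4-month change differed between regions for 2 of the called genes. For Gm34066 the change in the PH exceeded that in the POA by 1.97 on the log2 scale (limma adjusted p = 0.0117), and for the second Gm28040 entry by 2.68 (limma adjusted p = 7.98e-06). The cause was not tested.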

How the results depend on the processing

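None of the 23 called or lowest-p genes changed direction in any of the alternatives run. The median of 19 of the 41 lists changed sign in at least 1, and 15 of these medians were under 0.1 in size. The other 4 were choroid plexus (-0.16, and 0.24 without intact replicate 1), thalamus (-0.17, and 0.02 in batch 1 alone), fibroblast and matrix (0.13, and -0.02 without intact replicate 2) and posterior hypothalamic nuclei (0.11, and -0.02 without 4-month replicate 5). The 4 called protein-coding genes became 1 in batch 1 alone, 0 in batch 2 alone (limma, with 1.85% of protein-coding genes at an unadjusted p under 0.05), 2 with 100 added to each value and 7 over all gene types. Leaving out 1 sample gave 3 to 11 called genes, with 11 without 4-month replicate 3, 8 without replicate 2 and 7 without replicate 1 or 6. Without 14-day replicate 5, the sample that SV1 mostly separates, and with batch in place of SV1, an alternative chosen after seeing the data, 10 were called. The 6.61% of protein-coding genes at an unadjusted p under 0.05 became 4.25% with batch in place of SV1, 3.23% with no covariate, 3.31% in batch 1 alone and 1.85% in batch 2 alone, and 5.62% to 8.75% when 1 sample was left out. The cause of these shifts was not tested beyond the fewer samples of the batch fits. With a replicate block 4 genes were called, 2 of them among the original 4, and 3.23% were at that unadjusted p. Of the 7 calls over all gene types the block ended those of C4b (limma adjusted p = 0.0718), Gm28040 (0.132), Pisd-ps1 (0.214), 9630013A20Rik (0.274) and Gm18517 (1.00). Same-numbered intact and 4-month samples correlated at 0.372, 0.125, -0.109 and 0.233 in their deviations, and 1 of the 4 intact samples correlated best with its own number. As not every pair was over 0.1 and the labels do not tie the numbers to a shared animal or day, the numbers were not taken to pair the samples. The interaction with region called 2 genes with SV1, with batch and with no covariate. The read depth behind genes near the floor, such as Gm34066 and Gm28040, is unknown.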
